A study of Bos taurus with 12 samples.

Results

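The ligands and receptors of the tumour necrosis factor (TNF) superfamily were followed in the endometrium of 3 cows after povidone-iodine, an antiseptic, had been given into the uterus. Members were chosen by name alone: every non-control probe whose gene name begins with TNFSF or TNFRSF and a digit, plus TNF, LTA, LTB, LTBR, FAS, FASLG, CD40, CD40LG, CD27 and CD70. This gave 34 genes, 14 ligands and 20 receptors, with 54 of the 43622 probes and among 25314 gene names on the array. LTB had no probe under its name. The family probes that the array names otherwise, for TNFRSF10D and TNFSF18, lay outside the rule. A gene is represented by its brightest probe, by the mean over all arrays. The ligand TNF and the receptors TNFRSF12A, TNFRSF9, CD40 and TNFRSF6B were higher on day 7 than on day 0, and on day 2 TNFRSF12A and TNFRSF6B were higher and TNFRSF19 lower than on day 0. For TNFRSF9, not above background on any day 0 array, the test is not independent of how probes were selected, as given below.

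Biopsies were taken on days 0, 2, 7 and 14, with day 0 as the day against which the others were set, and the design text states that the same 3 animals were sampled each time, alternating between the left and right horn. The labels call the animals fertile cows and give the tissue as endometrium. All samples belong to the povidone-iodine course and no untreated cow is among them, so a change over days cannot be told apart from the passage of time or from repeated biopsy. The horn of each biopsy, the stage of the oestrous cycle and whether the day 0 biopsy preceded the antiseptic are not given by the labels. Total RNA of each biopsy was labelled with cyanine-3 and hybridised to 1 Agilent bovine array, 12 arrays in all. Levels below are log2 processed signal minus the 75th percentile of the same array, so that 0 marks that percentile. Levels of different genes come from different probes and are not set against each other. In a tissue biopsy, fewer cells of a type and less RNA per cell cannot be told apart.

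TNF superfamily ligands are trimers, mostly made as membrane proteins that proteases can shed, and they cluster receptors with cysteine-rich extracellular domains. Receptors with a death domain, such as TNFRSF1A and FAS, can start cell death, while those that bind TRAF adaptors drive NF-kB and MAP kinase signalling, and decoy receptors bind ligand without signalling. In the endometrium the family takes part in leukocyte recruitment, epithelial and stromal turnover and the inflammatory response to infection or injury.

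The sample names of the arrays stand on the value table deposited with the scanner files. Every table column equalled the values of a single scanner file (correlation 1), yet for 10 of the 12 arrays that file is linked to another sample. The table's names were used, and under the file links no member was called in any comparison by limma (1 member had an unadjusted p under 0.05 on day 2, 1 on day 7). Of all 33539 probes tested, 0 to 237 were called in each comparison under the links. An unadjusted p under 0.05 was found for 336 probes on day 2 and 1770 on day 7. In the table's reading each slide holds 1 cow and each position on the slide 1 day, so slide and cow, and position and day, cannot be told apart. The 75th percentile of the signal lay between 824.8 and 1117.6 intensity units, and no spot was saturated. The share of probes well above background was 71.3 to 76.0% on 11 arrays and 63.2% on the day 2 array of cow 3. On that day cow 3 was the lowest of the 3 cows for 23 of the 30 members tested, against 48.1% of all probes. The same array stood apart in tissue markers: its summed smooth muscle signal was 423.0 times the array's 75th percentile, against 60.9 and 86.4 for the other cows that day, and its epithelial sum was 29.2, against 83.7 and 91.3. The number of arrays, 3 a day, limits the precision.

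Probes of the family are shown first where they carry letters common to several ligands, since each member's level rests on the 60 bases of its probe. Coordinates are those of the files, whose headers name the build Btau 3.1. A FASLG probe at chr16:36827172-36827231 (plus strand) and the LTA probe at chr23:27536148-27536207 (minus strand) share the pattern ANTGGNCTGTANTTNGTNTANTCCNAAGTG, where N is any base, in capitals here. It is the longest ungapped stretch in which no 2 neighbouring bases differ.
FASLG: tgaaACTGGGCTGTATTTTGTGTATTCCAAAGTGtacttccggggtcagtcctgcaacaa
LTA: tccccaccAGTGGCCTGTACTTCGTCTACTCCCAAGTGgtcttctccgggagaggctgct
Of all 43622 probes, read on both strands, these were the only 2 with the pattern (0.00458%). Neither was well above background on any of the 12 arrays, and FASLG is represented by another probe.

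The probes of TNFSF10 (chr1:97117828-97117887), TNFSF14 (chr7:16386527-16386586) and TNFSF11 (chr12:11488392-11488451), all on the plus strand, share TTNGGNGCNTT by the same rule.
TNFSF10: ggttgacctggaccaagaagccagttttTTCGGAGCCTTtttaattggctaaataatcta
TNFSF14: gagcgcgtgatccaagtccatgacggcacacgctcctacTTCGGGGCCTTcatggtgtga
TNFSF11: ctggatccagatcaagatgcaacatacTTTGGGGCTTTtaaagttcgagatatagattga
This shorter pattern was found in 81 probes (0.186%), and the probes compared were chosen after the sequences had been seen. The members sharing them did not share a detection pattern: TNFSF10 was well above background on all 12 arrays, TNFSF14 on 4 and TNFSF11 on none.

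Each of CD40 and TNF had a second probe away from the brightest, and these are shown because both repeated the call of the first. For TNF the repeat is not independent of selection, since that probe passed the filter given below through the later days alone. The CD40 probe covers chr13:75619845-75622705 on the plus strand, more than 60 bases, so its letters come from separate genomic blocks. The TNF probe lies at chr23:27532093-27532152 on the minus strand.
CD40: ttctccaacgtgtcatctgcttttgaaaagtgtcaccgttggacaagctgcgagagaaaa
TNF: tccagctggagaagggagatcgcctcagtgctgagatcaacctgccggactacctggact

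The 34 members lie on 15 chromosomes of the build, and 8 of these hold more than 1. Chromosome 16 holds 8: FASLG, TNFSF4, TNFRSF1B, TNFRSF8, TNFRSF9, TNFRSF25, TNFRSF4 and TNFRSF18, from 36828216 to 48567764. The probes of TNFRSF4 and TNFRSF18 are 6.95 kb apart and those of TNF and LTA 4.77 kb apart. CD27, LTBR and TNFRSF1A follow each other on chromosome 5, as do TNFSF14, CD70 and TNFSF9 within 119.2 kb of chromosome 7. Neighbours could differ: TNF was above background on all 12 arrays and LTA on none. TNFRSF9 was called higher on day 7. TNFRSF25, its nearest member downstream on the coordinates though 1510 kb away, changed by 0.27 ± 0.23 log2 (SE), not past the threshold.

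Of the 34 members, 19 were well above background on all 12 arrays (6 ligands and 13 receptors), 12 on some arrays and 3 on none. The members seen on no array were LTA, TNFSF11 and its receptor TNFRSF11A, the pair that drives osteoclast formation. TNFRSF8, a receptor of activated lymphocytes, was seen on a single array, on day 7. Some members changed detection with the day. TNFRSF9 was above background on 2, 3 and 2 of 3 arrays on days 2, 7 and 14 and on none on day 0. CD40LG was above background on all 3 arrays of day 14 and on none of the other days.

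**Figure D1:**
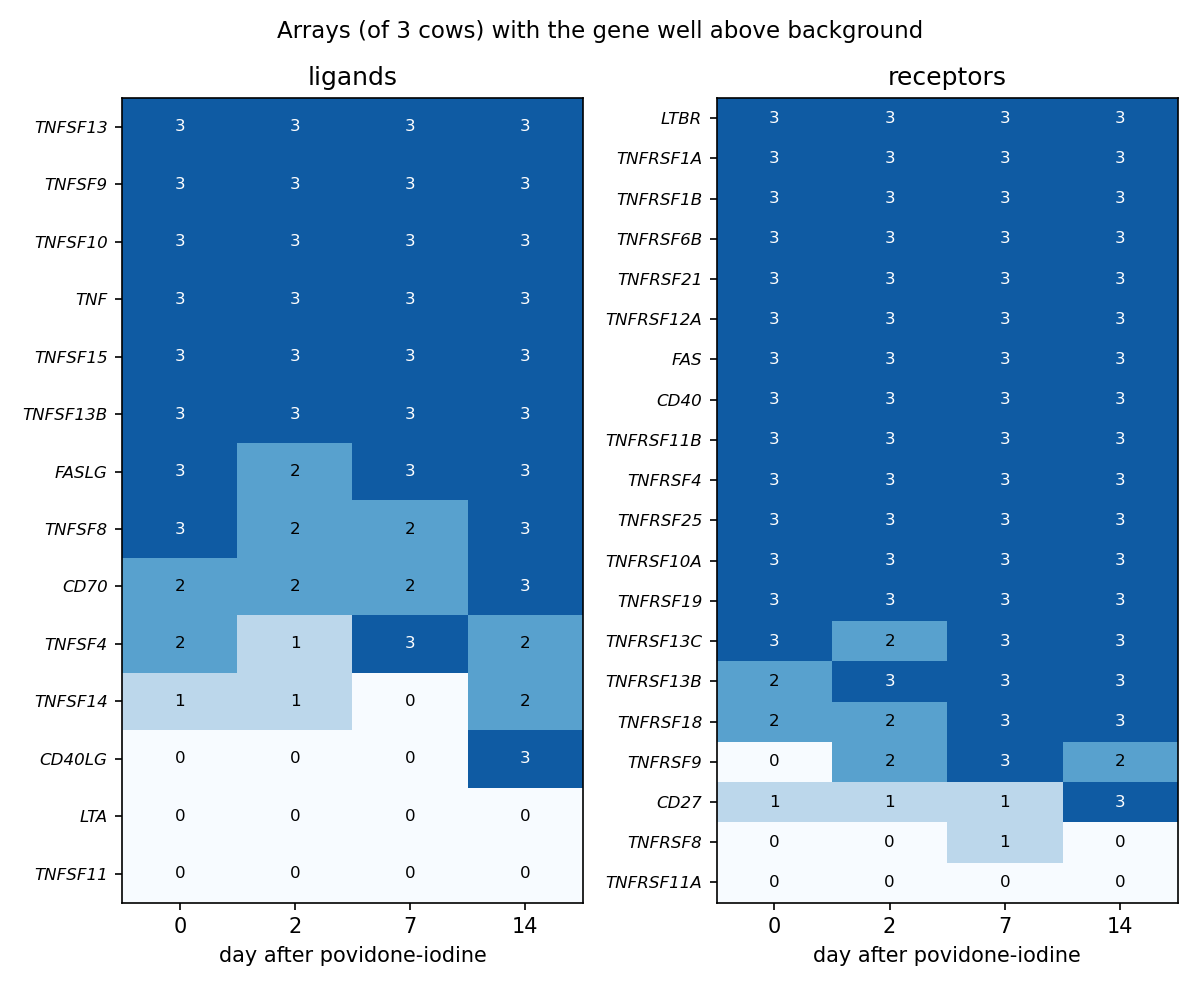
Number of arrays (of 3 cows) on which each member was well above background, by day; ligands on the left, receptors on the right, darker for more arrays. LTA, TNFSF11 and TNFRSF11A are at 0 on every day, TNFRSF9 is at 0 on day 0 alone, and CD40LG is above 0 on day 14 alone.

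Among 22 known ligand and receptor pairs whose genes are both members, both partners were above background on all 12 arrays in 6: TNF with TNFRSF1A and with TNFRSF1B, TNFSF10 with TNFRSF10A and with TNFRSF11B, and TNFSF15 with TNFRSF25 and with TNFRSF6B. In 3 pairs the receptor was above background on all arrays and the ligand on none: LTA with TNFRSF1A and with TNFRSF1B, and TNFSF11 with TNFRSF11B. The pairs come from textbook knowledge, largely of human and mouse.

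Changes were tested with limma on all 12 arrays, with day and cow in the model, over the 33539 probes well above background on at least 3 arrays. A member was called where the Benjamini-Hochberg adjusted p over all these probes was under 0.05. The filter kept 30 members, 12 ligands and 18 receptors, and left out LTA, TNFSF11, TNFRSF11A and TNFRSF8.

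On day 2 against day 0, 3 of the 30 were called, all receptors: TNFRSF12A and TNFRSF6B rose and TNFRSF19 fell. Of all probes 2.52% were called in this comparison, 1.63% higher and 0.894% lower. On day 7 against day 0, 5 of the 30 (16.7%) were called, near the background of 18.2% of all probes (10.3% higher and 7.91% lower), and all 5 rose: TNF, TNFRSF12A, TNFRSF9, CD40 and TNFRSF6B. On day 14 against day 0 no member was called by limma, with 8 at an unadjusted p under 0.05, and 0.116% of all probes were called (0.0596% higher and 0.0567% lower). Of all 33539 probes, 6890 had an unadjusted p under 0.05 on day 14. The F-test among the 4 days called TNFRSF12A, TNFRSF6B, CD40 and TNFRSF9, 4 of 30, against 7.82% of all probes. TNFRSF9 was not above background on any day 0 array and passed the filter through the later days alone. Its calls on day 7 and in the F-test are thus not independent of its selection.

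The counts rest on few animals. Without cow 1 no member was called on day 2 or day 7 by limma (5 and 6 at an unadjusted p under 0.05). Of all 33539 probes 0 were called on either day (3284 and 6696 at an unadjusted p under 0.05). The loss without cow 1 was thus not particular to the members. Without cow 2, none was called on day 2 (6 at an unadjusted p under 0.05) and TNFRSF12A alone on day 7. Of all probes 0 were called on day 2 (4189 at an unadjusted p under 0.05) and 213 on day 7. Without cow 3 the counts were 1 on day 2, TNFRSF19, and 7 on day 7, and without that cow's day 2 array alone none was called on day 2 (12 at an unadjusted p under 0.05). Of all probes, 841 were called on day 2 and 6229 on day 7 without cow 3. Without the day 2 array alone, 566 probes were called on day 2 (6979 at an unadjusted p under 0.05). Without that array the day 2 changes were 2.43 for TNFRSF12A, 2.01 for TNFRSF6B and -1.82 for TNFRSF19, with adjusted p-values of 0.0848, 0.0781 and 0.065 (limma). Without cow as a block the day 2 count was 0 (8 at an unadjusted p under 0.05). Of all probes 429 were called in that fit (5524 at an unadjusted p under 0.05).

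The median log2 change over the 30 members was -0.05 on day 2, 0.30 on day 7 and 0.30 on day 14, each against day 0. Over all gene names it was -0.02, 0.01 and 0.02 on the same days. On day 7, 16 members were higher in all 3 cows and 2 were lower in all 3. By day mean, 12 members were highest on day 7, 9 on day 14, 6 on day 0 and 3 on day 2. The counts by cow and by highest day were not made over all gene names, so they are not read as a trait of the family.

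**Figure D2:**
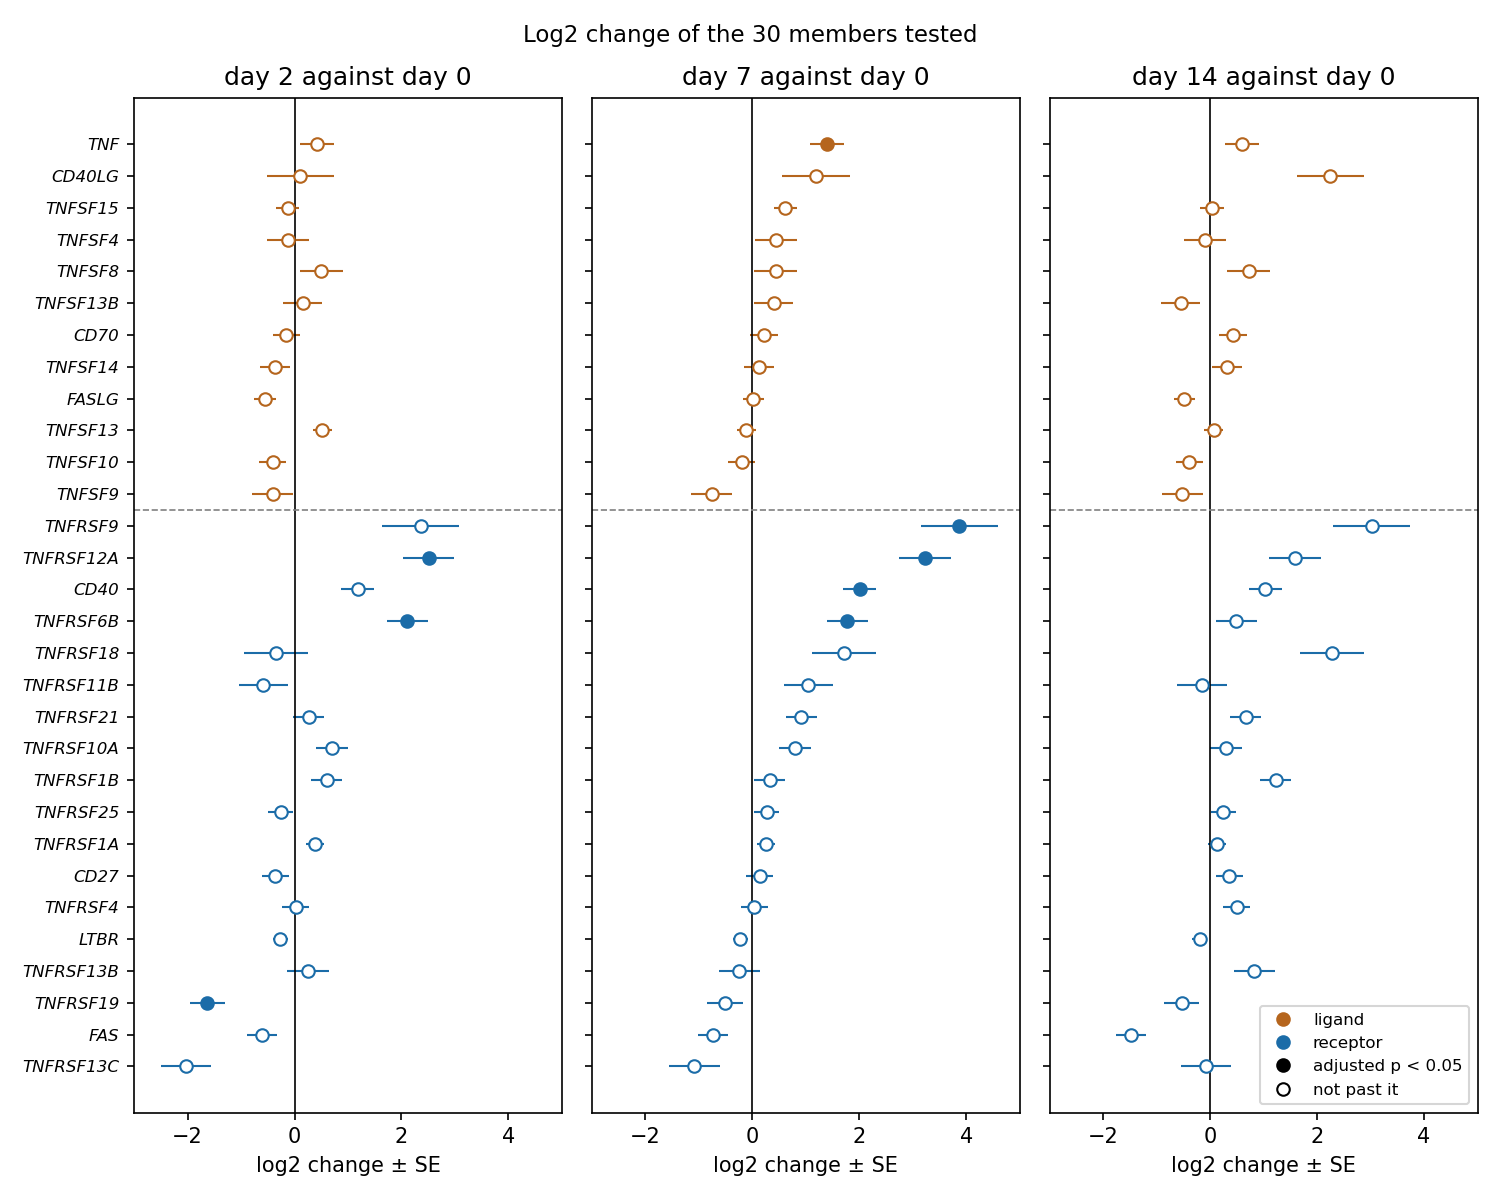
Log2 change (± SE from limma) of the 30 members tested, on days 2, 7 and 14 against day 0, ligands above the dashed line and receptors below it. Filled points passed an adjusted p of 0.05: 3 on day 2, 5 on day 7 and none on day 14.

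TNF, the founding cytokine of the family, was the only ligand called. Its level in cows 1, 2 and 3 was -3.94, -4.50 and -4.29 at day 0, -3.08, -3.99 and -4.40 at day 2, -3.16, -3.00 and -2.38 at day 7, and -3.46, -3.90 and -3.59 at day 14. All 3 values of day 7 lay above all 3 of day 0, and cow 3 had the highest value of all on day 7. The change on day 7 against day 0 was 1.40 ± 0.32 log2 (SE), or 2.63-fold, with a limma adjusted p of 0.0238. The second TNF probe was above background on 2 of 3 arrays on day 7 and on none on day 0, which gave an at least 1.94-fold higher level (adjusted p = 0.0149, limma). This probe passed the filter through the later days alone, where it is higher, so its tests against day 0 are not independent of its selection. "At least" here and below sets the mean of the brighter day against a dimmer day on which no array was above background. Each array of the dimmer day counts as the higher of its lowest signal called above background and the probe's own signal. On day 2 the first probe changed by 0.42 ± 0.32 log2, and was lower in cow 3. The second was higher in all 3 cows that day without overlap, at least 1.67-fold (adjusted p = 0.0639, limma). On day 14 the first probe changed by 0.60 ± 0.32 and the second was at least 1.24-fold higher (adjusted p = 0.16, limma).

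The TNF receptors were not called. TNFRSF1A, the widely expressed death-domain receptor of TNF, had 1.58, 1.83 and 1.52 at day 0, 2.19, 2.22 and 1.68 at day 2, 1.89, 2.20 and 1.59 at day 7, and 1.76, 1.77 and 1.79 at day 14. Its changes were 0.38, 0.25 and 0.13 log2 on days 2, 7 and 14 (SE 0.17). TNFRSF1B, the TNF receptor prominent on leukocytes and endothelium, had 1.62, 1.68 and 0.54 at day 0, 2.51, 2.14 and 1.01 at day 2, 2.26, 1.54 and 1.03 at day 7, and 2.51, 2.49 and 2.53 at day 14. The cows were far apart on the first 3 days and close together on day 14, when all lay above all day 0 values. That change was 1.23 ± 0.29 log2 with an adjusted p of 0.0888 (limma).

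TNFRSF12A, the receptor for the ligand TWEAK and a gene known to be induced in injured and regenerating tissue, rose on both day 2 and day 7. Its level was -2.37, -2.63 and -2.25 at day 0, 0.38, -0.02 and -0.09 at day 2, 0.21, 1.73 and 0.48 at day 7, and -1.27, 0.44 and -1.67 at day 14. No value of days 2, 7 or 14 overlapped those of day 0. The rise was 2.51 ± 0.48 log2 on day 2 (5.69-fold, adjusted p = 0.0388) and 3.23 ± 0.48 on day 7 (9.35-fold, adjusted p = 0.00603, limma). On day 14 it was 1.59 ± 0.48, not past the threshold (adjusted p = 0.131, limma), with cow 2 well above the others. All 3 probes of the gene were called on day 7. On day 2 the third of them missed the threshold, at 2.13 ± 0.55 (adjusted p = 0.0846, limma). TNFSF12, which encodes TWEAK, has no probe by that name and was not analysed here.

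TNFRSF9, a costimulatory receptor induced on activated T and natural killer cells, had -7.46, -7.54 and -8.42 at day 0, not well above background in any cow. It had -5.40, -4.25 and -6.69 at day 2, -5.42, -2.71 and -3.68 at day 7, and -5.69, -2.36 and -6.30 at day 14. Every later value lay above every day 0 value, and cow 2 was the highest on days 2, 7 and 14. It passed the filter through the later days alone, where it is higher, so its tests against day 0 are not independent of its selection. On day 7 the level was at least 6.08-fold higher than on day 0 (adjusted p = 0.0122, limma; measured day means -3.94 and -7.81). The bounds for day 2, at least 2.13-fold, and day 14, at least 3.37-fold, went with adjusted p-values of 0.121 and 0.0888 (limma). With normexp background correction and quantile normalisation the day 7 change was 1.00 log2, against 3.87 with the processed signal, and missed the threshold (adjusted p = 0.056, limma). Its ligand TNFSF9 had -1.55, -2.32 and -1.94 at day 0, -1.69, -1.97 and -3.39 at day 2, -2.51, -2.22 and -3.36 at day 7, and -1.63, -2.08 and -3.67 at day 14. Only cow 3 had values under -3, on all 3 later days, and the change on day 7 was -0.76 ± 0.38 log2 (adjusted p = 0.186, limma).

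CD40, the receptor through which T cells activate B cells, macrophages and also epithelium and endothelium, rose on day 7. It had -2.15, -1.82 and -2.04 at day 0, -0.30, -0.66 and -1.51 at day 2, 0.42, 0.65 and -1.04 at day 7, and -0.89, -0.37 and -1.64 at day 14. Cows 1 and 2 moved more than cow 3, but in each cow day 7 was the highest and day 0 the lowest. The change on day 7 was 2.01 ± 0.31 log2, 4.03-fold, with an adjusted p of 0.00689 (limma). The second CD40 probe gave 2.53 ± 0.35 (adjusted p = 0.00507, limma). The change of the first probe was 1.18 ± 0.31 on day 2 (adjusted p = 0.086) and 1.03 ± 0.31 on day 14 (adjusted p = 0.13, limma), and neither day overlapped day 0.

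CD40LG, the T cell ligand of CD40, was near the floor of the array. It had -8.26, -8.39 and -8.75 at day 0, -8.52, -8.93 and -7.60 at day 2, -6.36, -6.79 and -8.66 at day 7, and -6.67, -6.45 and -5.52 at day 14. Only the day 14 values were well above background, and there the level was at least 1.25-fold higher than on day 0 (adjusted p = 0.113, limma). CD40LG passed the filter through those 3 arrays alone, so this test is not independent of its selection.

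**Figure D3:**
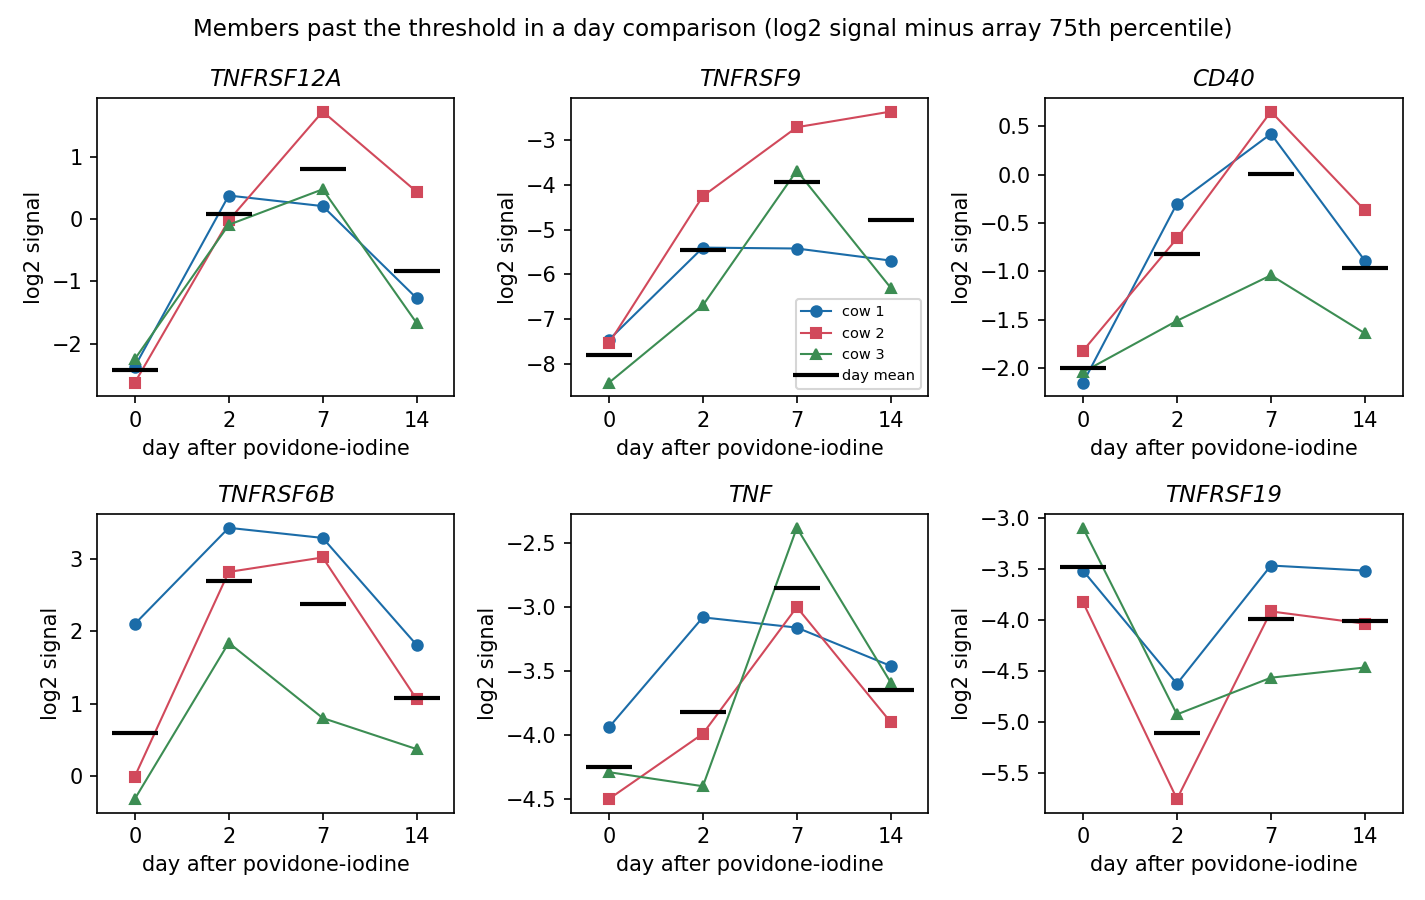
Level (log2 signal minus the array's 75th percentile) of the 6 members past the threshold on day 2 or day 7, by day, with a line for each cow and a bar for the day mean; each panel has its own scale. TNFRSF12A, TNFRSF9, CD40, TNFRSF6B and TNF have their lowest day mean on day 0, and TNFRSF19 has its lowest on day 2.

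TNFRSF6B, in human a soluble decoy that binds FASLG, TNFSF14 and TNFSF15, rose on days 2 and 7 within each cow. Its level was 2.10, -0.01 and -0.32 at day 0, 3.43, 2.82 and 1.84 at day 2, 3.29, 3.02 and 0.80 at day 7, and 1.81, 1.06 and 0.37 at day 14. The days overlapped because cow 1 began above the other cows and stayed there on every day. The change was 2.11 ± 0.38 log2 on day 2 (4.32-fold, adjusted p = 0.0345) and 1.78 ± 0.38 on day 7 (3.44-fold, adjusted p = 0.0185, limma). Without cow as a block the adjusted p-values were 0.223 on day 2 and 0.163 on day 7. Its second probe was called on both days, at 2.39 ± 0.39 and 1.96 ± 0.39.

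Of the ligands that the decoy binds in human, FASLG, which triggers death through FAS, had -4.77, -5.82 and -4.95 at day 0, -5.07, -6.16 and -5.95 at day 2, -4.69, -5.60 and -5.20 at day 7, and -5.02, -6.53 and -5.42 at day 14. Within cows it was lower in all 3 on day 2, at -0.55 ± 0.20 log2 (adjusted p = 0.175), and on day 14, at -0.48 ± 0.20 (adjusted p = 0.232, limma), and neither passed the threshold. These FASLG values rest on 1 probe, since the gene's other probes were not above background on any array and failed the filter. TNFSF14, a ligand of LTBR made by lymphocytes, was above background on 1, 1, 0 and 2 arrays on days 0, 2, 7 and 14. It had -6.23, -6.83 and -6.68 at day 0, -6.09, -7.14 and -7.60 at day 2, -6.26, -6.53 and -6.55 at day 7, and -6.35, -6.22 and -6.24 at day 14, all near the limit of detection. TNFSF15, a ligand of TNFRSF25 made by endothelium and myeloid cells, had -4.17, -3.47 and -4.14 at day 0, -3.75, -3.77 and -4.64 at day 2, -3.30, -2.66 and -3.97 at day 7, and -4.08, -3.15 and -4.44 at day 14. Day 7 was its highest day in each cow, at 0.62 ± 0.22 log2 over day 0 (adjusted p = 0.0871, limma).

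FAS, the death receptor of FASLG, was below its day 0 values in all 3 cows on every later day. It had 0.00, -0.14 and 0.45 at day 0, -0.54, -0.53 and -0.44 at day 2, -0.39, -0.37 and -1.14 at day 7, and -1.14, -1.81 and -1.14 at day 14. No later day overlapped day 0, and day 14 was the lowest or shared the lowest value in each cow. The day 14 change was -1.47 ± 0.28 log2, 2.77-fold lower, and missed the threshold (adjusted p = 0.0655, limma). With normexp background correction and quantile normalisation it passed, at -1.45 (adjusted p = 0.0324, limma).

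TNFRSF11B, osteoprotegerin, a secreted decoy for TNFSF11 that also binds TNFSF10, had -1.54, -1.67 and -1.64 at day 0, -1.54, -1.87 and -3.20 at day 2, -0.74, 0.02 and -0.98 at day 7, and -0.70, -1.30 and -3.32 at day 14. All day 7 values lay above all day 0 values, at 1.05 ± 0.46 log2 (adjusted p = 0.147, limma). Cow 3 was well below the other cows on days 2 and 14.

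TNFRSF19, a receptor known from embryonic tissues and epithelial progenitors, was the only member called lower. It had -3.52, -3.83 and -3.10 at day 0, -4.63, -5.76 and -4.93 at day 2, -3.47, -3.92 and -4.57 at day 7, and -3.52, -4.04 and -4.47 at day 14. On day 2 it lay below day 0 in all 3 cows with no overlap, and afterwards cows 1 and 2 were back within 0.22 log2 of their day 0 value while cow 3 was not. The day 2 change was -1.63 ± 0.33 log2, 3.09-fold lower (adjusted p = 0.0471, limma). That call was narrow: it was lost with quantile normalisation (adjusted p = 0.0625) and without the filter (0.0627), and with normexp correction and quantile normalisation together the change was -0.67 (adjusted p = 0.1, limma).

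TNFRSF21, a death-domain receptor found in many tissues, had 0.45, 0.97 and 0.82 at day 0, 1.28, 1.40 and 0.36 at day 2, 1.40, 2.07 and 1.52 at day 7, and 1.09, 2.35 and 0.79 at day 14. Day 7 did not overlap day 0, at 0.92 ± 0.29 log2 (adjusted p = 0.0628, limma). Its 3 probes gave different answers on day 7: a second was called, at 1.11 ± 0.25 (adjusted p = 0.022, limma), and the third was not, at 0.42 ± 0.44.

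Receptors that B cells use for survival signals differed between cows as well as days. TNFRSF13C, the BAFF receptor of B cells, had -3.05, -3.78 and -2.81 at day 0, -4.27, -5.72 and -5.74 at day 2, -3.74, -3.73 and -5.42 at day 7, and -2.55, -3.91 and -3.38 at day 14. All day 2 values lay below all day 0 values, at -2.03 ± 0.47 log2 (adjusted p = 0.0635, limma). Its second probe was above background on none of the day 2 arrays and on all 3 of day 0, which gave an at least 1.03-fold lower level (adjusted p = 0.182, limma). That probe passed the filter through days 0 and 14 alone, where it is higher. With normexp correction and quantile normalisation the first gave -1.03 (adjusted p = 0.0782, limma). TNFRSF13B, which binds both BAFF and APRIL on B and plasma cells, had -4.46, -5.43 and -6.62 at day 0, -5.25, -5.36 and -5.14 at day 2, -5.31, -6.01 and -5.92 at day 7, and -4.63, -4.40 and -5.00 at day 14. Against day 0 its largest change was on day 14, 0.83 ± 0.39 (adjusted p = 0.271, limma), with overlap. On day 14 against day 7 it was 1.07 ± 0.39 (adjusted p = 0.21, limma), higher in all 3 cows without overlap. Beside these, the summed signal of 6 B or plasma cell markers was 0.794 to 5.57 on day 2 against 1.26 to 14.9 on day 0, in units of the array's 75th percentile, and none of the 5 markers tested was called. MS4A1 was not above background on any day 2 array, CD79B on none of days 0, 2 and 7, and PAX5 changed by 0.37 ± 0.17 log2 on day 2. The part of these cells in the receptor values was not tested. Their ligands TNFSF13 (APRIL) and TNFSF13B (BAFF) changed on day 2 by 0.52 ± 0.18 and 0.15 ± 0.37 log2, not past the threshold.

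TNFRSF18, a costimulatory receptor of regulatory and activated T cells, had -5.63, -5.79 and -6.55 at day 0, -5.42, -6.27 and -7.31 at day 2, -5.12, -4.03 and -3.70 at day 7, and -3.48, -2.61 and -5.04 at day 14. Days 7 and 14 lay above day 0 with no overlap, at 1.71 ± 0.60 (adjusted p = 0.0835) and 2.28 ± 0.60 log2 (adjusted p = 0.103, limma). With normexp correction and quantile normalisation these values were 0.47 and 0.75. TNFRSF4, another T cell costimulatory receptor whose probe lies beside it on chromosome 16, changed by 0.04 ± 0.25 on day 7 and 0.50 ± 0.25 on day 14.

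The other members tested were the ligands CD70, TNFSF4, TNFSF8, TNFSF10, TNFSF13 and TNFSF13B and the receptors CD27, LTBR, TNFRSF4, TNFRSF10A and TNFRSF25, and none of them was called on any day. Their changes lay between -0.55 and 0.80 log2 on days 2, 7 and 14 against day 0. TNFRSF10A, a receptor of the death ligand TNFSF10, had the highest of these, 0.80 ± 0.30 on day 7, when its values did not overlap day 0. LTBR, the lymphotoxin receptor of stromal and epithelial cells, stayed between 1.83 and 2.37 on all 12 arrays, and its changes lay between -0.27 and -0.19 (SE 0.14).

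No member was called on day 7 against day 2 or on day 14 against day 7. On day 7 against day 2, 9 members had an unadjusted p under 0.05 in limma and the median change was 0.50 log2, against 0.03 over all gene names. An unadjusted p under 0.05 was found for 6111 of all 33539 probes in this comparison. Of all probes 0.486% were called, 0.2% higher and 0.286% lower. On day 14 against day 7, 11 members had an unadjusted p under 0.05 in limma and the median change was -0.08, with 0.146% of all probes called (0.0477% higher and 0.0984% lower). Of all probes, 6042 had an unadjusted p under 0.05 on day 14 against day 7. TNFRSF12A, TNFRSF6B and CD40 had values of -1.64 ± 0.48, -1.29 ± 0.38 and -0.98 ± 0.31 log2 on day 14 against day 7, with adjusted p-values of 0.15, 0.152 and 0.172 (limma).

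Downstream genes were read from lists of the pathway. Of 19 tested adaptors and death signalling genes, 2 rose on day 7 against day 0 and none fell: MLKL, the effector of necroptosis, by 1.58 ± 0.28 log2 and RIPK3, its activating kinase, by 0.96 ± 0.27. The median of this list was 0.28. Of 24 tested genes of NF-kB signalling, 4 rose on day 7 and 1 fell. RELB, a subunit of the non-canonical pathway, rose by 1.20 ± 0.26, the linear deubiquitinase OTULIN by 0.94 ± 0.21, NFKBIZ by 0.88 ± 0.25 and the kinase IKBKB by 0.73 ± 0.19, while TAB1, an activator of the kinase TAK, fell by 0.93 (SE 0.22). Of 6 genes of ligand and receptor shedding, TIMP3, an inhibitor of the sheddase ADAM17, rose on day 7 by 1.17 ± 0.31. With 18.2% of all probes called on day 7, the shares of these lists lay near or below the background.

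Genes known to respond to TNF were read the same way. On day 7, 7 of 19 tested rose and none fell, where 10.3% of all probes were called higher, among them CXCL5 by 4.78 ± 0.91 log2, IER3 by 2.97 ± 0.48, CCL2 by 2.92 ± 0.44 and CXCL8 by 2.87 ± 0.59. On day 2, 2 of 19 rose, where 1.63% of all probes were called higher: CCL2 by 3.59 ± 0.44 and CXCL8 by 3.26 ± 0.59. These genes also respond to other cytokines and to bacterial products. The list's median was 0.95 on day 2, 0.74 on day 7 and 0.88 on day 14. On day 14 no gene of any of these lists was called by limma. Of 3 tested family genes outside the rule, RELT, an orphan receptor, rose on day 7 by 1.04 ± 0.20. The others, EDA and NGFR, changed that day by -0.30 ± 0.30 and -1.80 ± 0.55 and were not called (adjusted p = 0.513 and 0.054, limma).

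Some marker lists of other cells were higher on days 2 and 7, when members were called, and others were not. The summed signal of 7 macrophage or monocyte markers, in units of the array's 75th percentile, was 9.09 to 9.88 on day 2 and 4.28 to 15.0 on day 7, against 3.1 to 3.58 on day 0. All 7 were above background on all arrays, and 1 rose on day 2 and 3 on day 7. The sum of 5 neutrophil markers was 3.00 to 8.64 on day 2 and 1.02 to 4.83 on day 7, against 0.352 to 0.951 on day 0. CXCR1 and CXCR2 of this list were not above background on any array of days 0, 2 and 14. CSF3R had no probe, and S100A8, S100A9 and S100A12 were the only markers of the list that were tested. The sum of 5 smooth muscle markers was 60.9 to 423.0 on day 2 and 149.0 to 317.0 on day 7, against 39.3 to 57.6 on day 0, and 3 of the 5 rose on day 7. Cow 3 had the highest of these sums on days 2, 7 and 14, and on day 14 it had 334.0 where the other cows had 60.1 and 67.2. The sum of 6 endothelial markers was 11.8 to 16.3 on day 2 and 8.82 to 11.2 on day 7, against 9.24 to 12.4 on day 0. Of these, PECAM1 rose on day 2 (1.13 ± 0.23 log2) and day 7 (1.18 ± 0.23), and VWF, not above background on any day 0 array, rose on day 7 (adjusted p = 0.0203, limma). VWF was not above background on any day 14 array either, so it passed the filter through days 2 and 7 alone. The sum of 6 natural killer or cytotoxic markers was 2.19 to 2.97 on day 2 and 1.38 to 9.47 on day 7, against 1.9 to 3.76 on day 0, and NKG7 rose on both days (1.71 ± 0.28 and 1.68 ± 0.28). The sum of 8 T cell markers was 4.44 to 5.32 on day 2, 4.97 to 6.16 on day 7 and 3.74 to 6.39 on day 14, against 4.89 to 5.43 on day 0. CD2 rose on day 7 (0.85 ± 0.24), and CD6 was not above background on any array. All 7 epithelial and all 7 stromal fibroblast markers, which check the labelled tissue, were above background on all arrays. The epithelial sum was 29.2 to 91.3 on day 2 and 44.9 to 78.3 on day 7, against 55.6 to 68.9 on day 0. The stromal sum was 176.0 to 230.0 on day 2 and 197.0 to 231.0 on day 7, against 167.0 to 170.0 on day 0. None of the 7 stromal markers was called on either day, and all 7 had a positive log2 change on day 7. The sum of 4 red cell markers was 0.958 to 1.37 on day 14 against 0.174 to 0.281 on day 0. The part of these cells in the members' changes was not tested.

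**Figure D4:**
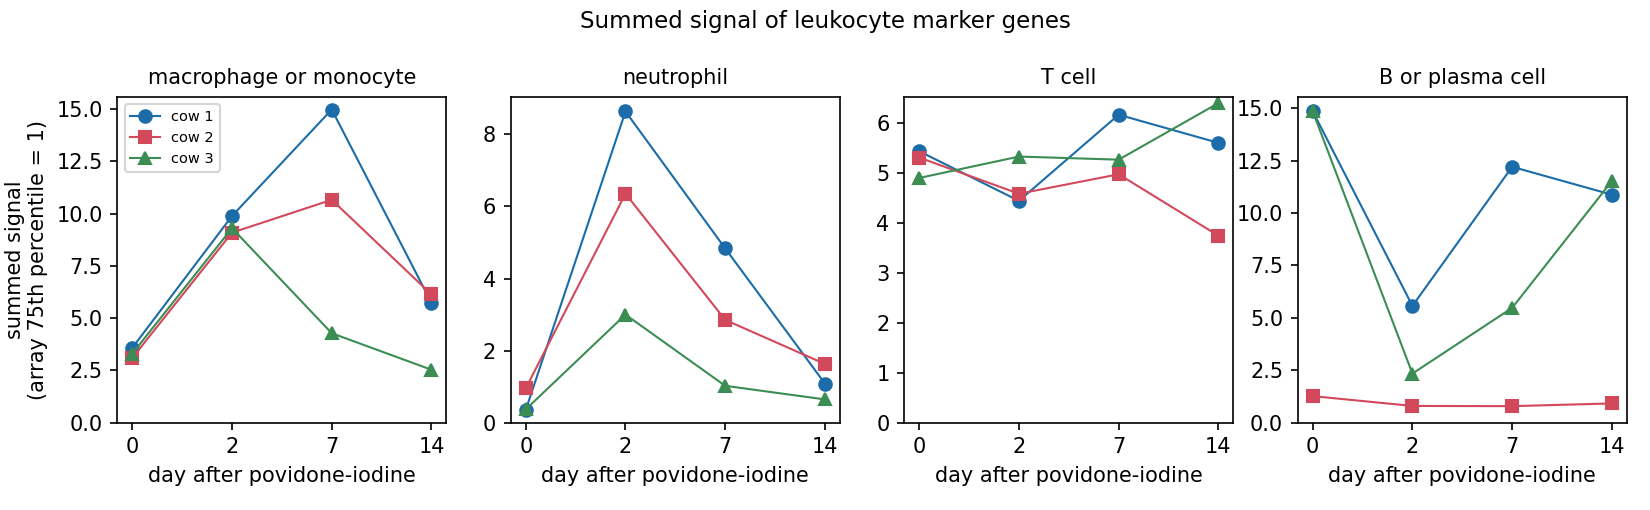
Summed signal of 4 lists of leukocyte markers (linear scale, the array's 75th percentile set to 1) by day, with a line for each cow. Macrophage and neutrophil sums lie above day 0 in all 3 cows on days 2 and 7, and T cell sums stay between 3.74 and 6.39.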

How the data were processed

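Total RNA of 12 endometrial biopsies (3 cows on 4 days) was hybridised to single-colour Agilent arrays. The authors deposited scanner intensity values from Agilent Feature Extraction (11.5.1.1 per the file headers; the submitters' processing notes name 10.5.1.1). The authors also deposited a table of log2 values; how it was made is not stated in the sources used. Its columns matched log2 processed signal minus each array's 75th percentile, centred per probe, and their medians lay between -0.07 and 0.08. Scale, centring and direction were found by that comparison alone.

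Here log2 processed signal minus the array's 75th percentile was used. Spots of a probe were averaged, and 1417 control spots and 31 of 43653 probes with outlier flags were left out. Probes well above background on at least 3 of 12 arrays (33539) were fitted with limma 3.58.1 in R 4.3.3, with day and cow as terms, and p-values were adjusted by Benjamini-Hochberg over all of them at 0.05. The fit had 6 residual and 2.33 prior degrees of freedom and was tested on simulated data. The cow is a block because, per the design text, each animal was sampled on every day. Residuals of arrays of the same cow had a mean correlation of 0.285 over 18 pairs, and 15 pairs were above 0.1.

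Members, lists, pairs and tests were chosen with earlier results of these data known. Members past 0.05, TNF, FAS, FASLG, CD40, CD40LG, binding partners of called members and the 5 others with the largest changes are given array by array; of the lists, at most 4 called genes in each direction and comparison are named. Of the 54 member probes, 36 matched a RefSeq table by accession, and all 36 carried the same symbol there. Probes had been placed by the files on build Btau 3.1, per the file headers. Alternatives were quantile normalisation, normexp (offset 50) with quantile normalisation, no filter, no block, the compared days alone, array weights, the deposited table, the file links, any probe of a gene, and leaving out each cow or the day 2 array of cow 3.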

Additional observations from a re-analysis of the deposited data

How the results depend on the processing

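Of the 8 called changes (3 on day 2 and 5 on day 7), all 8 kept direction and call with the deposited value table and with array weights, 7 with quantile normalisation, 6 with normexp and quantile normalisation, 6 without the filter, 4 with no replicate block (cow not in the model), 3 with the compared days alone, and 0, 1 and 6 without cows 1, 2 and 3. The array weights did not converge. Fewer samples enter the fits without a cow or with the compared days alone; for the other settings the cause was not tested. With the sample names of the file links none of the 8 was called and 4 turned direction: TNF on day 7 (-0.33), TNFRSF12A on day 2 (-0.71), and TNFRSF6B on day 2 (-1.40) and day 7 (-1.69).

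Counts of called members were as follows. On day 2 (3 in the main setting) there were 1 without the filter, 0 with no replicate block, 1 with the compared days alone, 8 with array weights, 0 with the file links, and 0 to 1 with a cow or the day 2 array of cow 3 left out. Of all probes, 846 of 33539 were called in the main setting, 528 of 43622 without the filter and 429 with no replicate block. The compared days alone called 396, array weights 5078, the file links 0, and the fits with a cow or that array left out 0 to 841. On day 7 (5) there were 2 with the compared days alone, 9 with array weights, 0 with the file links, and 0 to 7 with a cow left out. Of all probes, 6100 were called in the main setting, 1879 with the compared days alone, 10432 with array weights and 0 with the file links. Leaving out a cow gave 0 to 6229 probes. On day 14 (0), normexp with quantile normalisation called 1, FAS. That setting called 810 of all probes on day 14, against 39 in the main setting. On day 7 against day 2 (0), array weights called 10, and leaving out cows gave 0 to 2. Of all probes, array weights called 10147 there and leaving out cows gave 0 to 2132, against 163 in the main setting. On day 14 against day 7 (0), array weights called 10, and of all probes 9411, against 49 in the main setting. In the F-test (4), 2 were called with no replicate block, 19 with array weights, 0 with the file links, and 0 to 3 with a cow left out (2 without the day 2 array of cow 3). Of all probes, the F-test called 2623 in the main setting, 1565 with no replicate block, 20619 with array weights and 123 with the file links. Leaving out a cow gave 0 to 3289 probes, and 3033 without the day 2 array of cow 3. With array weights the counts were thus higher over all probes as well as among the members. On day 2 the share was larger among the members, 8 of 30 against 5078 of 33539 probes. Low signal limits CD40LG, TNFSF14 and TNFRSF9, whose day 0 values lie at or near background.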
